A study of Schizosaccharomyces pombe with 10 samples.

Results

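Of the 7268 genes in the deposited count table of the fission yeast Schizosaccharomyces pombe, 7 were taken by their identifiers. They were the hexose transporter genes ght1 (SPCC548.07c), ght2 (SPBC4B4.08), ght4 (SPBC1683.08), ght5 (SPCC1235.14), ght6 (SPCC1235.13) and ght8 (SPCC548.06c), and the gluconeogenic gene fbp1 (SPBC1198.14c). Hexose transporters of the Ght family carry glucose and related sugars across the plasma membrane. Ght5 is the high-affinity glucose transporter that cells need for growth when glucose is scarce. The gene fbp1 encodes fructose-1,6-bisphosphatase, an enzyme of gluconeogenesis, and is a classic glucose-repressed gene: while glucose is plentiful, protein kinase A signalling and the repressor Scr1 keep it silent, and on glucose starvation the activators Atf1-Pcr1 and Rst2 turn it on.

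Poly(A)-selected RNA of 10 libraries was sequenced on a NovaSeq instrument, 2 from each of 5 strains grown in rich medium (2xYES) at 30 °C to exponential phase. The parent called wt (YYX43sp) carries the genotype h- with the alleles his3 d1, ura4-d18, leu1-32 and ade6-m216. The cph1Δ strain (YYX46sp) and the cph2Δ strain (YYX47sp) carry these alleles too, and their deletion is marked with KANMX. The parent called wt2 (YBL685sp) is listed as h- with no auxotrophic allele, and the set2Δ strain (YBL686sp) is h- with set2 replaced by KANMX. Both Cph1 and Cph2, which carry PHD fingers, belong to a Clr6 histone deacetylase complex, and Set2 is a histone H3 methyltransferase that travels with RNA polymerase II. The study compared the transcriptomes of these deletions with their parents. Each deletion is represented by 1 strain, so an effect of the deletion and any other difference of that strain from its parent cannot be told apart. The labels do not say whether a strain's 2 libraries were separate cultures, so the p-values measure only the spread between these libraries.

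Assigned counts per library lay between 9711537 and 13051467. The library with the lowest scaling factor was wt replicate 2 (0.845) and that with the highest was cph1Δ replicate 2 (1.25). Calls that rest on these libraries are given without them, or only with the number of alternative settings in which they held or were lost. Each deleted gene stood between 3.77% and 7.97% of its parent's level. Levels are given as CPM (counts scaled to a common library size), or as CPM per kilobase of exon (RPKM) where genes are compared with each other. Differences are log2 fold changes with the standard error of the fit, and adjusted p-values come from the quasi-likelihood test of edgeR, with the Benjamini-Hochberg method applied across all 5067 genes tested. A gene is said to rise or fall where the adjusted p is under 0.05. In bulk RNA, fewer cells with a transcript and less transcript per cell cannot be told apart.

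The transporter ght5 was the member that changed, and it was lower in the deletion strains than in their parents. Its transcript fell to 31.6% of the parent's level in cph1Δ and to 16.5% in set2Δ, while its 47.8% in cph2Δ did not pass the test. The abundant transporters ght8 and ght2 and the weakly expressed ght1 and ght4 did not pass in any comparison. The counts of fbp1 and ght6 were 0 in every library, and for both genes this is a property of the counting, described next.

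Whether a member could be counted depended on its neighbours in the annotation. The deposited counts leave out a read that touches exons of more than 1 gene, and they take no account of strand. The fbp1 gene (ASM294v2, II:197660-199474, minus strand) lies wholly within the non-coding RNA gene SPNCRNA.1324, which is annotated on the other strand, and its 5′ end also meets SPNCRNA.1325 (fbp1-ot3). Likewise ght6 (III:204706-206717, plus strand) lies wholly within SPNCRNA.1118, annotated on the minus strand. All 1815 exon bases of fbp1 and all 2012 of ght6 are therefore shared. Every one of the 1178 genes with all exon positions shared had a count of 0 in all 10 libraries, 362 of them protein-coding. Among 2113 genes with no shared position, 26 (1.23%) had 0 in all libraries, and among the 1786 coding ones 2 (0.112%) did. The zeros of fbp1 and ght6 thus carry no information on expression, and neither a level nor an upper limit can be given for them. Of the other members, ght2 (II:3427180-3429424, plus strand), ght5 (III:212160-214376, plus strand) and ght8 (III:226336-230546, minus strand) share no position. The ght1 gene (III:232288-235289, minus strand) shares 825 of 3002 exon bases (27.5%) with SPNCRNA.1121. The ght4 gene (II:155751-159570, plus strand) shares 2208 of 3820 (57.8%) with SPNCRNA.298, SPNCRNA.1318 and SPNCRNA.1319, so the levels of ght1 and ght4 are uncertain and too low.

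**Figure D1:**
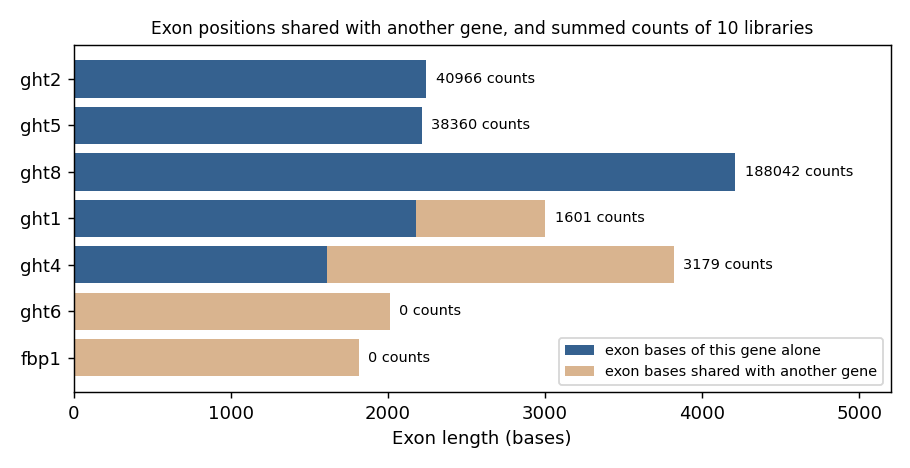
Exon length in bases of the 7 members (horizontal axis), divided into bases that belong to the gene alone and bases shared with another annotated gene, with the counts summed over 10 libraries written beside each bar. The bars of ght6 and fbp1 are shared over their whole length, and both have 0 counts.

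The sequences of the transporters also limit what was counted, since a read that matches 2 places was not assigned. The coding sequences of ght5 and ght8 are 91.7% identical in RefSeq's assembly ASM294v3. They share an identical run of 248 bases, at coding bases 1007 to 1254 of both genes, and 182 of these, in capitals, are also identical in ght1. The run is shown because it is the longest stretch from which no read can be credited to ght5 rather than ght8. It lies at III:213319-213566 on the plus strand in ght5 and at III:227147-227394 on the minus strand in ght8, and the part in capitals lies at III:233291-233472 on the minus strand in ght1.
ght5 and ght8, 5′ to 3′: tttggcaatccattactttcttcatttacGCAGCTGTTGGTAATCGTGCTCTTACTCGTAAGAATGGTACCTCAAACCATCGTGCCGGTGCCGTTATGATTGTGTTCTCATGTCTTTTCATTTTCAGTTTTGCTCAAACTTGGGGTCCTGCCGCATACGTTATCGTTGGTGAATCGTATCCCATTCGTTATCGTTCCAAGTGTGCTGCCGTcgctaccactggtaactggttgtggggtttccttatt

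Of all 100-base windows along the gene, 17.6% in ght5 and 14.4% in ght8 occur elsewhere in the genome. The shares were 3.81% in ght4, 2.95% in ght1 and 0 in ght2. With windows of 50 bases the ght5 share was 29.6% and with 150 bases 8.88%; the read length is not given in the sources used here. The counts of ght5 and ght8 therefore come from the rest of each gene, and the levels of both are too low by the reads left out.

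Per length, ght8 had the most abundant transcript among the counted members and ght1 the least. The family members ght3 and ght7 are not among the 7 and were not ranked here. In wt the mean RPKM was 428 ± 154 for ght8, 199 ± 3.62 for ght2, 151 ± 52.4 for ght5, 5.55 ± 0.817 for ght4 and 3.49 ± 0.661 for ght1 (SD, n = 2). The order ght8, ght2, ght5, ght4, ght1 was the same in cph1Δ, cph2Δ and set2Δ. By the deposited length, the libraries of neighbours in the order did not overlap in these 4 strains, except ght4 and ght1 in cph2Δ. The parent wt2 had another order, with ght5 (452 ± 77.8 RPKM) above ght2 (125 ± 40.6) and next to ght8 (500.2 ± 102). In wt2 the libraries of ght8 and ght5 overlapped, and so did those of ght4 and ght1. The overlap of ght8 with ght5 rests on the deposited exon length of ght8, 4211 bases against a span of 2510 in RefSeq. Per kilobase of the RefSeq span, a length chosen after the values were seen, ght8 in wt2 stood at 839 ± 171 and ght5 at 485 ± 83.6, with no overlap. By the same span, ght2 (199.5 and 194.4) and ght5 (122.3 and 202.0) overlapped in wt. Counted per unshared base, a second length chosen after the values were seen, ght4 stood above ght1 with no overlap in all 5 strains.

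Among the counted members the high-affinity transporter ght5 had the largest differences between strains. Its level was 253 and 417 CPM in the 2 libraries of wt, and 1123 and 879 CPM in those of wt2. In cph1Δ it was 116 and 95.9 CPM, in cph2Δ 119.7 and 200.3 CPM, and in set2Δ 133 and 198 CPM. All 6 deletion libraries lay below all 4 parent libraries, and those of cph2Δ and set2Δ overlapped, with both cph1Δ libraries below them. In cph1Δ, against wt, ght5 fell by 1.66 on the log2 scale (SE 0.32, adjusted p = 0.0129). In cph2Δ the difference from the same wt libraries was -1.06 ± 0.32 and did not pass (adjusted p = 0.0725). The cph1Δ and cph2Δ strains differed from each other by -0.60 ± 0.32 (adjusted p = 0.716), so a difference between the 2 deletions was not shown. In set2Δ, against wt2, ght5 fell by 2.60 on the log2 scale (SE 0.33, adjusted p = 0.00164).

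The parents themselves had different ght5 levels, and the set2Δ difference is measured from the higher one. The mean of wt2 was 2.99-fold that of wt (1.58 ± 0.32), a difference that did not pass over all genes (adjusted p = 0.0960). The set2Δ mean of 165 ± 46.3 CPM lay close to the cph2Δ mean of 160.005 ± 57.0 CPM. The cph1Δ effect differed from the set2Δ effect by 0.94 ± 0.45 (adjusted p = 0.615) and the cph2Δ effect by 1.53 ± 0.45 (adjusted p = 0.185). The parent wt carries auxotrophic alleles and wt2 is listed with none, and strain background and parent cannot be told apart.

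The calls of ght5 rested on single libraries in cph1Δ but not in set2Δ. Without wt replicate 2, its higher parent library, the cph1Δ difference was -1.28 with an adjusted p of 0.131, and without cph1Δ replicate 2 it was -1.53 with 0.134. The set2Δ fall passed under all 17 alternatives, with adjusted p up to 0.0240. In cph2Δ ght5 passed under 3 of 17, among them DESeq2 (-1.11, adjusted p = 0.00795) and the fit without wt replicate 1 (-1.38, adjusted p = 0.0499). The parental difference passed with DESeq2 (adjusted p = 1.9e-04) and with no filter on low counts (adjusted p = 0.0237).

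**Figure D2:**
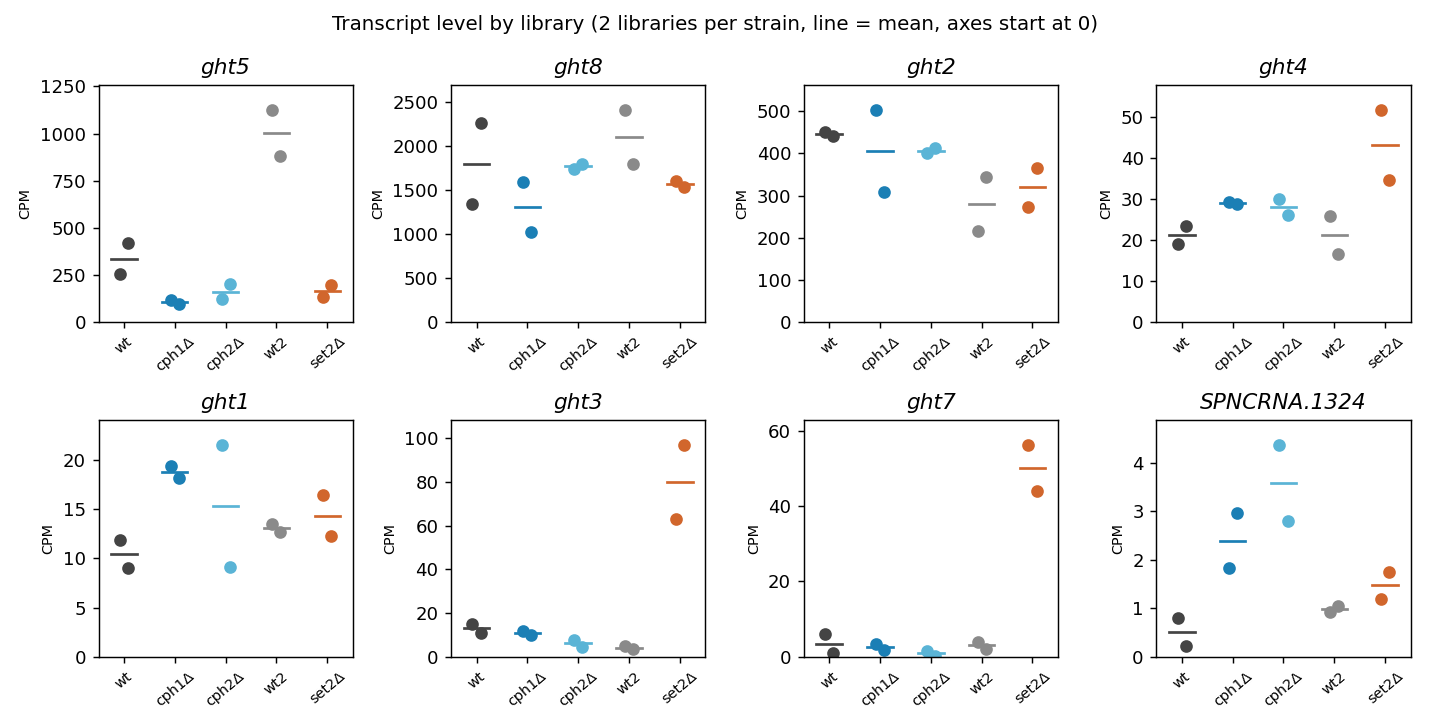
CPM (vertical axes, each starting at 0) of the 5 counted members, of the family members ght3 and ght7, and of SPNCRNA.1324 in the 2 libraries of each strain; points are libraries and lines are means. The 6 deletion libraries of ght5 lie below its 4 parent libraries, and ght3 and ght7 are high in set2Δ.

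The other abundant transporters, ght8 and ght2, did not pass in a deletion. The ght8 transcript stood at 1344 and 2262 CPM in wt, with 1589 and 1028 for cph1Δ and 1741 and 1804 for cph2Δ; wt2 had 2410.5 and 1802, and set2Δ 1603 and 1537. The cph2Δ libraries lay between those of wt, cph1Δ replicate 1 lay between them and replicate 2 below both, and both set2Δ libraries lay below those of wt2. Its differences were -0.46 ± 0.31 in cph1Δ (adjusted p = 0.380), -0.02 ± 0.31 in cph2Δ (0.971) and -0.42 ± 0.31 in set2Δ (0.539). Hexose transporter ght2 stood at 452 and 440.4 CPM in wt, 502 and 309 for cph1Δ and 400.0 and 414 for cph2Δ, then 215 and 344 for wt2 and 273 and 366 for set2Δ. No window of ght2 at the lengths tested occurs elsewhere in the genome. Its differences in the deletions lay between -0.14 and 0.19, and it stood lower in wt2 than in wt by -0.67 ± 0.28 (adjusted p = 0.640).

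The weakly expressed transporters ght1 and ght4 did not pass in a deletion. The ght4 transcript stood at 19.0 and 23.4 CPM in wt, 29.2 and 28.7 for cph1Δ and 30.1 and 26.2 for cph2Δ, then 25.9 and 16.6 for wt2 and 51.6 and 34.7 for set2Δ. Each deletion's libraries lay above those of its parent. The difference was 1.02 ± 0.27 in set2Δ (adjusted p = 0.0607), 0.45 ± 0.27 in cph1Δ (0.340) and 0.41 ± 0.28 in cph2Δ (0.400). In set2Δ it passed with DESeq2 (adjusted p = 0.0287) and with no filter on low counts (0.0441). The ght1 transcript stood at 11.9 and 9.07 CPM in wt, 19.4 and 18.1 for cph1Δ and 21.5 and 9.15 for cph2Δ, then 13.5 and 12.6 for wt2 and 16.4 and 12.3 for set2Δ. In cph1Δ its libraries lay above those of wt (0.84 ± 0.38, adjusted p = 0.214), and in cph2Δ and set2Δ they overlapped those of the parent. Its overlapping partner SPNCRNA.1121 had 37 and 15 counts in wt and 73 and 51 in cph1Δ, and the counts do not tell reads of the pair apart by strand.

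Over the members, 5 of 7 could be tested. In cph1Δ 0 were higher and 1 lower, where 5.62% of all genes were called, 5.31% higher and 0.316% lower. In set2Δ 0 were higher and 1 lower, where 4.89% were called, 4.32% higher and 0.572% lower. In cph2Δ edgeR called 0 of 5 members, where 6.12% of all genes were called, 5.21% higher and 0.908% lower; at an unadjusted p under 0.05 the count was 1, and DESeq2 called 1. Between the parents edgeR called 0 of 5 against 0.197% of genes, with 2 at an unadjusted p under 0.05 and 1 in DESeq2. Between cph1Δ and cph2Δ edgeR called 0 against 0.0592% of genes, with 0 at an unadjusted p under 0.05 and 0 in DESeq2. For the difference of the cph1Δ and set2Δ effects the count was 0 against 0.868%, also 0 unadjusted and in DESeq2. For that of the cph2Δ and set2Δ effects it was 0 against 1.26%, with 1 unadjusted and 1 in DESeq2. Of all 5067 genes, the unadjusted count was 1192 in cph2Δ, 368 between the parents and 351 between cph1Δ and cph2Δ. For the differences of the cph1Δ and cph2Δ effects from that of set2Δ it was 426 and 589. DESeq2 called 538, 64, 15, 85 and 110 genes in the same order. The median log2 fold change of the members was -0.14 in cph1Δ, -0.02 in cph2Δ and 0.13 in set2Δ, and that of all genes tested was 0.02, 0.01 and 0.03. The cph1Δ and cph2Δ comparisons share their wt libraries.

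**Figure D3:**
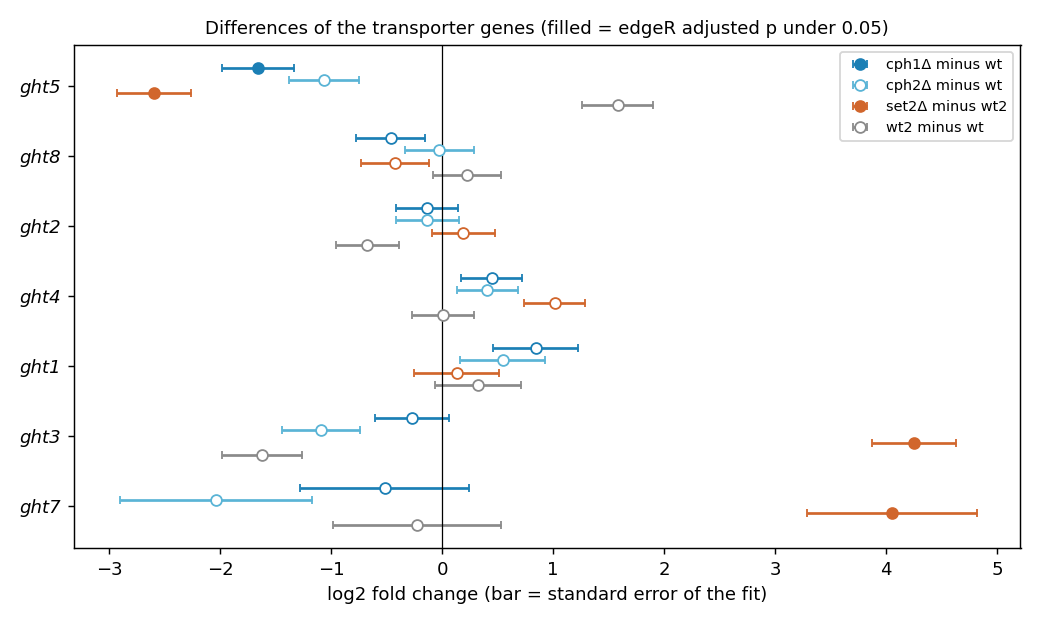
Log2 fold change (horizontal axis) of the counted transporter genes in 4 comparisons; bars are standard errors of the fit with 2 libraries a strain, and filled points have an adjusted p under 0.05. Filled points are ght5 in cph1Δ and set2Δ and, among family members outside the 7, ght3 and ght7 in set2Δ.

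Within the summed transcripts of the counted members, the share of ght5 was lower in each deletion than in its parent. Its share of the summed RPKM was 17.7% and 20.2% in the wt libraries and 42.7% and 40.2% in those of wt2. It was 7.83% and 9.86% in cph1Δ, 8.17% and 12.7% in cph2Δ, and 10.3% and 14.2% in set2Δ. Shares of ght8 were 53.7 ± 5.73% in wt and 45.8 ± 3.45% in wt2, and 56.1 ± 0.638%, 61.3 ± 1.76% and 61.7 ± 5.39% in cph1Δ, cph2Δ and set2Δ. Those of ght2 were 26.2 ± 7.21% in wt and 11.8 ± 5.28% in wt2. They were 32.5 ± 1.49%, 26.4 ± 0.793% and 23.4 ± 3.48% in cph1Δ, cph2Δ and set2Δ. The summed RPKM was 643 and 931 in wt, 667 and 439 in cph1Δ, and 661 and 713 in cph2Δ. It was 1186 and 986 in wt2 and 581 and 630.3 in set2Δ, so the sums of set2Δ and wt2 did not overlap while those of wt and its deletions did. These shares rest on the deposited exon length of ght8, 4211 bases against a RefSeq span of 2510. Per kilobase of the RefSeq span, ght8, ght5 and ght2 stood at 839, 485 and 124 in wt2. In wt they stood at 718, 162 and 197, so the ght5 share of both parents would be lower by that length. Shares of a sum are not independent and were not tested, and ght6 adds 0 to the sum for the reason given above. The sum also leaves out the family members ght3 and ght7. Their mean RPKM was 39.2 ± 11.7 and 28.5 ± 4.85 in set2Δ, where ght5 had 74.6 ± 20.9. In wt2 it was 2.04 ± 0.496 and 1.69 ± 0.714.

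**Figure D4:**
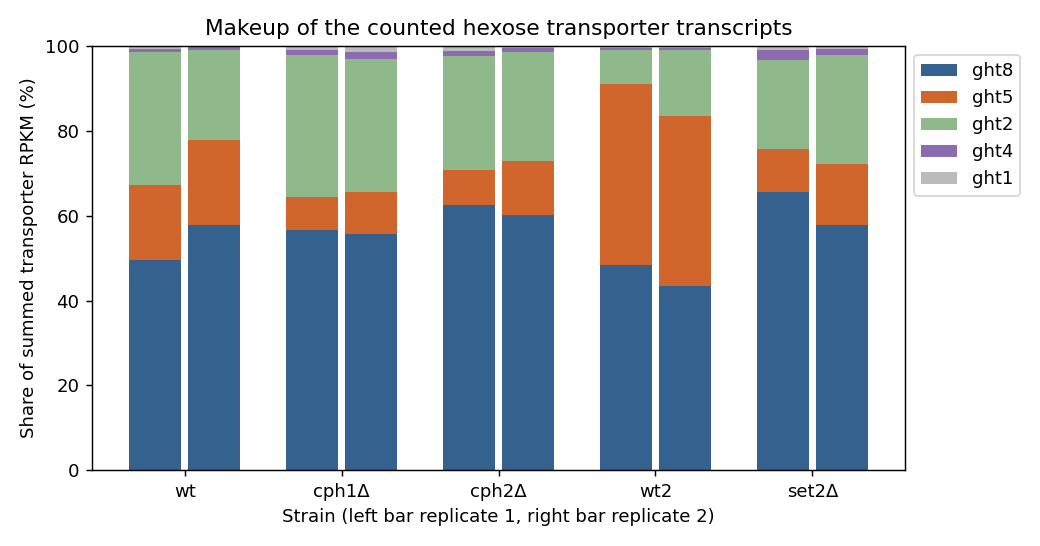
Share of the summed RPKM of the counted members (vertical axis, percent) in each library, stacked by gene; ght3 and ght7 are not in the sum. The share of ght5 is about 41.5% on average in wt2 and 19.0% in wt, and between 7.83% and 14.2% in the deletion libraries. RPKM uses the deposited exon lengths, which for ght8 is 4211 bases against a RefSeq span of 2510.

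At the fbp1 locus, the overlapping non-coding RNA SPNCRNA.1324 could be counted on the 727 of its 3627 bases that it shares with no other gene. It had 8 and 2 counts in wt, 22 and 37 for cph1Δ and 44 and 33 for cph2Δ, then 11 and 10 for wt2 and 12 and 23 for set2Δ. In cph2Δ it rose by 2.79 ± 0.73 (adjusted p = 0.0444). The difference was 2.22 ± 0.73 in cph1Δ (adjusted p = 0.106) and 0.59 in set2Δ. The cph2Δ call rests on few counts and was lost in 12 of 17 alternatives. The counts take no account of strand, so these reads may come from either strand of the region beside fbp1. SPNCRNA.1118, over ght6, had 3 counts in all 10 libraries together on the 268 bases of its own.

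The family members ght3 and ght7 rose in set2Δ. The gene ght3 (SPAC1F8.01, I:82746-84786, plus strand), for a gluconate transporter, had 153 and 101 counts in wt, 139 and 123 for cph1Δ and 78 and 52 for cph2Δ, then 58 and 33 for wt2 and 637 and 1268 for set2Δ. Its level was 79.9 ± 24.0 CPM in set2Δ and 4.17 ± 1.01 CPM in wt2, a 19.2-fold difference of the means (4.25 ± 0.38, adjusted p = 1.2e-04). This difference is measured from the lower parent. The ght3 mean of wt2 was 32.3% of that of wt (-1.62 ± 0.36, adjusted p = 0.120). That parental difference passed with DESeq2 (adjusted p = 0.00403) and with no filter on low counts (0.0491). The gene ght7 (SPBC1348.14c, II:38514-40277, minus strand), another family member, had 60 and 10 counts in wt, 39 and 21 for cph1Δ and 16 and 2 for cph2Δ, then 46 and 20 for wt2 and 569 and 578 for set2Δ. It rose in set2Δ by 4.06 ± 0.77 (adjusted p = 0.0119). For both genes each set2Δ library was above all 8 other libraries. Neither shares exon positions with another gene, and neither passed in cph1Δ or cph2Δ. In cph2Δ the difference was -1.09 ± 0.35 for ght3 (adjusted p = 0.0836) and -2.04 ± 0.87 for ght7 (0.183). That of ght3 passed with DESeq2 (adjusted p = 0.0330). In cph1Δ the differences were -0.27 ± 0.34 for ght3 and -0.52 ± 0.76 for ght7. The set2Δ effect on ght3 exceeded that of cph1Δ by 4.52 (adjusted p = 9.0e-04) and that of cph2Δ by 5.34 (adjusted p = 3.2e-04). The ght7 effect exceeded that of cph2Δ by 6.10 (adjusted p = 0.0237) and that of cph1Δ by 4.57 (adjusted p = 0.0911). The first of these was lost in 6 of 17 alternatives, among them the robust option (adjusted p = 0.0875) and the fit without wt replicate 1, where the cph2Δ effect minus the set2Δ effect was -4.37 (adjusted p = 0.211). The ght7 rise was lost without wt2 replicate 1 (adjusted p = 0.0646), wt2 replicate 2 (0.108) or set2Δ replicate 1 (0.0656).

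The closest coding relative of ght4 is ght3, at 81.3% identity. They share an identical run of 240 bases at coding bases 856 to 1095 of both genes, shown because ght3 rose in set2Δ while ght4 did not pass there. It lies at II:158410-158649 in ght4 and at I:83791-84030 in ght3, both on the plus strand of ASM294v3 in RefSeq.
ght4 and ght3, 5′ to 3′: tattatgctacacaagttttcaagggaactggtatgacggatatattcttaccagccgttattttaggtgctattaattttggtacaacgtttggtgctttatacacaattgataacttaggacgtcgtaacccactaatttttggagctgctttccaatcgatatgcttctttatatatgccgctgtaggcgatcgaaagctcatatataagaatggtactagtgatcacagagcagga

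Reads within this run could be assigned to neither gene. Identity was 75.7% between ght1 and ght5, 75.1% between ght1 and ght8 and 72.0% between ght5 and ght6, and lay between 60.5% and 70.6% for ght2 with each of the others.

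Letters of known control elements were searched in the 1000 bases before each coding start of ASM294v3, on both strands. The stress-starvation response element CCCCTC, which Rst2 binds, was found before 384 of 5112 coding genes (7.51%). Among the 9 genes searched, fbp1, ght3 and ght5 held it, and the other 6 did not within this window. Beyond the window it was found 1211 bases before ght4, and again 1324 bases before ght5. The sites within the window are shown to set ght5 beside fbp1. Of the other transporters that changed, ght3 holds the motif there and ght7 does not. Capitals mark the motif or its reverse complement, and each is read on the strand of its gene. They lie at II:199659-199688 (minus strand) 534 bases before fbp1, at III:211515-211544 (plus strand) 786 bases before ght5, and at I:82010-82039 (plus strand) 914 bases before ght3.
fbp1: tttcattgcaagCCCCTCgttttttgaaga
ght5: catttctgcgttCCCCTCttattacaccct
ght3: agtttaacagctGAGGGGtacctttcgtca

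The core TGACGT of the cAMP response element, recognised by Atf1-Pcr1, was found before 753 coding genes (14.7%). Within the 1000 bases it lies before ght2, ght3, ght4 and ght7. Before fbp1 it lies outside this window, at 1167 bases. In ght3 it lies at I:82370-82399 (plus strand), 554 bases before the coding start, and in ght7 at II:40704-40733 (minus strand), 578 bases before it.
ght3: caagtcaattctACGTCAgccatccaagaa
ght7: ccactttgtacaACGTCAttcagggttaac

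The CCAAT box, recognised by the Php complex, was found before 4346 coding genes (85.0%), among them every member but ght4. These matches describe letters only.

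Genes of glucose sensing and use were read from lists beside the members. Of 9 tested genes that are raised on glucose limitation, 3 rose in cph1Δ, 2 in cph2Δ and 2 in set2Δ. Of all genes tested, 5.31%, 5.21% and 4.32% rose and 0.316%, 0.908% and 0.572% fell, so the 0 of 9 that fell in each is no result about the list. The invertase gene inv1, which splits sucrose outside the cell, rose in all 3 deletions. It stood at 41.6 and 30.3 CPM in wt, 108 and 109 for cph1Δ and 105 and 100.6 for cph2Δ, then 39.0 and 34.6 for wt2 and 82.7 and 81.5 for set2Δ. Its log2 fold changes were 1.59 ± 0.18 in cph1Δ (adjusted p = 0.00137), 1.52 ± 0.18 in cph2Δ (0.00116) and 1.16 ± 0.18 in set2Δ (0.00535), and the last was lost without wt2 replicate 2 (0.0752). The alpha-glucosidase gene agl1 rose by 1.30 ± 0.21 in cph1Δ (adjusted p = 0.00515) and 1.19 ± 0.21 in cph2Δ (0.00744). Both agl1 calls were lost without wt replicate 2 (adjusted p = 0.0869 and 0.1000). The dehydrogenase gene tms1 rose in cph1Δ by 1.14 ± 0.27 (adjusted p = 0.0323), a call lost in 5 of 17 alternatives. Among these were the compared libraries alone (adjusted p = 0.0635), and the fits without wt replicate 2 (0.72) or cph1Δ replicate 2 (1.02). The dihydroxyacetone kinase gene dak2 rose in set2Δ by 1.99 ± 0.30 (adjusted p = 0.00381), and shares 31.4% of its exon positions with SPAC977.17. Invertase gene inv1 rose in cph1Δ and set2Δ, where ght5 fell, and also in cph2Δ, where ght5 did not pass. A link between inv1 and ght5 was not tested.

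In the signalling lists of 11 to 13 genes the edgeR counts of 0 or 1 were near the share of all genes called, 5.62% in cph1Δ, 6.12% in cph2Δ and 4.89% in set2Δ. These edgeR counts are not a result about the lists. At an unadjusted p under 0.05 there were 1180 of all 5067 genes in cph1Δ, 1192 in cph2Δ and 924 in set2Δ. DESeq2 called 484, 538 and 357 genes in these comparisons. Whether the unadjusted and DESeq2 counts of the lists differ from these was not tested. Of 12 genes of glucose sensing and protein kinase A signalling, the adenylate cyclase gene cyr1 rose in cph1Δ (0.62 ± 0.16, adjusted p = 0.0494, and past in 3 of 17 alternatives). At an unadjusted p under 0.05 there were 4 of the 12 in cph1Δ, and DESeq2 called 1. In cph2Δ and in set2Δ edgeR called 0 of the 12, with 3 in each at an unadjusted p under 0.05 and 1 in each by DESeq2. Of 11 regulators of glucose-repressed transcription, php3, for a subunit of the CCAAT-binding complex, in cph2Δ fell by 0.79 (SE 0.20, adjusted p = 0.0377, past in 9 of 17 alternatives). At an unadjusted p under 0.05 there were 5 of the 11 in cph2Δ, where 1192 of all 5067 genes were, and DESeq2 called 4. The list's median log2 fold change was -0.35 in cph1Δ, -0.47 in cph2Δ and -0.18 in set2Δ, against 0.02, 0.01 and 0.03 for all genes tested. In cph1Δ and in set2Δ edgeR called 0 of the 11, with 2 in each unadjusted, and DESeq2 called 1 and 0. Of 11 genes of the AMP-activated kinase, the TORC2 complex and the arrestins that act on Ght5 protein, the kinase gene tor1 rose in cph2Δ (0.70 ± 0.18, adjusted p = 0.0428, past in 3 of 17 alternatives). At an unadjusted p under 0.05 there were 4 of these 11 in cph2Δ, and DESeq2 called 2. In cph1Δ edgeR called 0 of the 11, with 5 unadjusted and 2 by DESeq2, and in set2Δ it called 0, with 0 unadjusted and 0 by DESeq2. Of 13 tested genes of glycolysis and fermentation, which act downstream of the transporters, edgeR called 0 in any deletion, with 1 in each at an unadjusted p under 0.05; DESeq2 called 0 in cph1Δ, 1 in cph2Δ and 1 in set2Δ.

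The pattern of each counted member over the 10 libraries was set beside that of 4360 genes with a mean of at least 5 CPM, by Pearson's r of log2 CPM. The points share 5 strains and are not independent, so r is a description. The genes most like ght5 were SPCC4B3.13 (r = 0.95) and the kinase gene ppk6 (0.94). Those most like ght8 were tim17 (0.94) and mpg2 (0.94), and those most like ght2 were fmo1 (0.96) and sua1 (0.89). The genes most like ght4 were exo1 (0.95) and SPNCRNA.975 (0.92), and those most like ght1 were bro1 (0.94) and gde1 (0.92). All 10 of these genes share exon positions with another gene. No other member was among them. None of the tested coding neighbours of the members passed in a deletion comparison. Nearest to the threshold were wwm3, beside fbp1, in cph2Δ (-1.14 ± 0.36, adjusted p = 0.0799) and frp1, beside ght4, in set2Δ (1.17 ± 0.35, 0.0864). Beside ght5, dga1 had -0.54 ± 0.19 in cph1Δ (adjusted p = 0.133) and -0.28 ± 0.19 in set2Δ (0.502).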

How the data were processed

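Raw counts of each gene in each library were deposited. STAR 2.7.10a and build ASM294v2 are named in the submitters' processing notes. Per the file headers, featureCounts of Subread 2.0.1 summed exons by gene, with no option for strand, multi-mapping reads or reads over several genes. Groups were taken from the labels.

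Counts were tested with edgeR 4.0.16 (limma 3.58.1, R 4.3.3). Genes were filtered by filterByExpr and libraries scaled by TMM, with factors from 0.845 to 1.25. All 5 groups entered 1 fit with no block (5 residual degrees of freedom), and p-values were adjusted over 5067 genes at 0.05. The script was checked on simulated data. DESeq2 1.42.0, other scalings, no filter, the compared libraries alone, a replicate block and each library left out were alternatives. RPKM used the deposited exon length. Lengths per RefSeq span and per unshared base were added after the data were seen.

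Members, lists and tests were chosen with earlier results of these data known. Named genes were the members, list genes past the test in a deletion comparison (at most 4 a list and comparison), the 2 genes most like each member (log2 CPM, pseudocount 0.5), coding neighbours and genes sharing exons. RefSeq (ASM294v3) gave names for 6846 genes and the sequences. Its coordinates are printed only for sequences. Depth lay between 9711537 and 13051467 counts per library.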

Additional observations from a re-analysis of the deposited data

Results flagged for a closer look

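Differences between the effects of deletions passed the adjusted threshold in edgeR at 3 genes of the glucose lists, none of them a member. For ght3 the cph1Δ effect minus the set2Δ effect was -4.52 and the cph2Δ effect minus the set2Δ effect -5.34. For ght7 the cph2Δ effect minus the set2Δ effect was -6.10, and for dak2 it was -2.57 (adjusted p = 0.00977). The ght7 difference was lost in 6 of 17 alternatives, standing at -4.37 without wt replicate 1 (adjusted p = 0.211). That of dak2 was lost without wt replicate 1 (adjusted p = 0.0675) and without set2Δ replicate 2 (0.0601), and both of ght3 passed in all 17. In all 3 genes set2Δ libraries were above wt2 libraries. The deletions have different parents.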

How the results depend on the processing

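Over the 67 log2 fold changes examined, 1018 values under alternatives kept their direction and side of the threshold, 18 passed newly and 69 no longer passed. A further 32 values, of 15 results, had the other sign, none of them past the test under either setting. For ght1 in cph2Δ the sign changed from 0.55 to -0.19 when cph2Δ replicate 1 was left out. Genes called numbered 285 in cph1Δ, 310 in cph2Δ, 248 in set2Δ, 10 between the parents, 3 between cph1Δ and cph2Δ, and 44 and 64 for the differences of the cph1Δ and cph2Δ effects from that of set2Δ. Where its count moved by over 1.5 times, DESeq2 called 484 in cph1Δ, 538 in cph2Δ, 64 between the parents, 15 between cph1Δ and cph2Δ, and 85 and 110 for the differences of effects. With the compared libraries alone there were 168 in cph1Δ, 121 in cph2Δ and 4 between the parents. With no filter on low counts there were 32 between the parents, 8 between cph1Δ and cph2Δ and 69 for the cph1Δ difference. Members called were 1 in cph2Δ, 2 in set2Δ and 1 between the parents both with no filter and with DESeq2, and 1 for the cph2Δ difference with DESeq2. Leaving out 1 library gave between 41 and 311 genes in cph1Δ, 64 and 440 in cph2Δ, 54 and 266 in set2Δ, 6 and 18 between the parents, 2 and 26 between cph1Δ and cph2Δ, and 20 and 66, and 20 and 102, for the differences of effects. Counts were lowest without wt replicate 2 in cph1Δ and cph2Δ and without wt2 replicate 2 in set2Δ. Members called then were 0 to 1 in cph1Δ and cph2Δ, 1 in set2Δ and 0 elsewhere. The causes were not tested. By CPM with no length, the ght5 share was 12.7% in wt, 5.81% in cph1Δ, 6.67% in cph2Δ, 29.2% in wt2 and 7.81% in set2Δ; by unshared length it was 18.7%, 8.63%, 10.3%, 41.1% and 11.9%.

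Replicate numbers were shared by the groups, but nothing in the labels pairs the libraries, and deviations of same-numbered libraries correlated at -0.43 for wt with cph1Δ and 0.30 for wt2 with set2Δ. With the replicate block, 260 genes were called in cph1Δ, 275 in cph2Δ and 227 in set2Δ, and 1, 0 and 1 members.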
